A study of Mus musculus with 12 samples.

Results

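Transcript levels of 10 genes of the NRF2 antioxidant response and the pentose phosphate pathway were followed in mouse liver after induction of the AP-1 subunits Fra-1 or Fra-2. The genes were taken by symbol from the table of gene counts: Srxn1, Txnrd1, Gclc, Gclm, Nqo1, Hmox1, Pgd, G6pdx, Pir and Nfe2l2. Each symbol matched a single row of the 55421 in the table, and all 10 were among the 14076 genes that passed the filter on low counts. Liver was sampled from adult male C57BL/6 mice of 2 strains, Fra1hep and Fra2hep, with 3 mutants and 3 littermate controls per strain, separate mice that make 12 libraries in 4 groups. Doxycycline was withdrawn from every mouse, controls included, at 3 weeks of age, which switched on the transgene in the mutants only. Titles and design text place all 4 groups at 2 months of induction, whereas the treatment label of the 3 Fra2 mutants says 9 months and that of their controls 2 months. Age and Fra-2 induction cannot be told apart if that label is right. The sources used here do not give the promoter that drives the transgene, and the tissue was labelled as mostly hepatocyte.

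NRF2, encoded by Nfe2l2, is a transcription factor that is held in the cytoplasm and marked for degradation by KEAP1 until electrophiles or oxidants release it. In the nucleus it pairs with a small Maf protein (MafF, MafG or MafK) and binds antioxidant response elements in front of genes for glutathione synthesis, thioredoxin reduction, quinone reduction and NADPH supply. AP-1, the dimer of Fos-related proteins such as Fra-1 and Fra-2 with Jun proteins, binds a closely related short sequence, so that a DNA element can carry both. The liver uses this response in handling drugs and reactive by-products of metabolism, with much of the control of NRF2 acting on its protein and not on its transcript.

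Sequence before the transcript starts was available from RefSeq (GRCm38.p6) for 8 of the 10 genes, with 3 starts for Txnrd1 and 2 for Pgd; Gclc and Hmox1 had no entry. The 250 bases before each start were searched on both strands for the antioxidant response element core TGACNNNGC and for the AP-1 site TGAGTCA. A further pattern, the variant core TGAGNNNGC, was added after the Srxn1 sequence had been read. The AP-1 site is its own partner on the opposite strand except at the central base, and an AP-1 site followed by GC on either strand is also a match to TGACNNNGC or TGAGNNNGC. The Srxn1 and Pir sequences are shown because these are the members called in the Fra2 mutants in opposite directions, and because no other member had an AP-1 match. Capitals mark matches, the sequence runs 5′ to 3′ on the gene's strand, and positions count back from -1, the base before the start. Both sequences stop where an exon annotated in GENCODE M21 begins, 242 bases for Srxn1 (chr2:152105274-152105515, plus strand) and 190 bases for Pir (chrX:164269181-164269370, plus strand).
Srxn1: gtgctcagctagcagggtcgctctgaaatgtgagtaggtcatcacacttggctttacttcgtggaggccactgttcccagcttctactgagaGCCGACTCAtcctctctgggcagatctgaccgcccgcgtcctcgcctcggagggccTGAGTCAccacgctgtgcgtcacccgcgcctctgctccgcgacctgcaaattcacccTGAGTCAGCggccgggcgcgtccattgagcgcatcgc
Pir: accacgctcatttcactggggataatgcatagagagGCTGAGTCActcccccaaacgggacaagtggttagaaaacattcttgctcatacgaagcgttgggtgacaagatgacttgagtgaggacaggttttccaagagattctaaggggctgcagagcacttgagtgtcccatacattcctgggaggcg
Srxn1 held AP-1 matches at -102 to -96 and at -45 to -39. The match at -45 runs on into the variant core TGAGTCAGC, which ends at -37, and another variant core lies on the reverse strand at -158 to -150. Srxn1 had no match to TGACNNNGC. In Pir a reverse-strand match to the response element core, TGACTCAGC, at -214 to -206 contains an AP-1 match at -212 to -206.

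The response element core was also found before RefSeq starts of Gclm, Txnrd1, G6pdx and Nfe2l2, shown here as 25-base stretches with the match in capitals. They let these members be set beside Pir, whose core alone contains the AP-1 letters.
Gclm, chr3:122245415-122245439: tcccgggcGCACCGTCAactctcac
Txnrd1 start 2, chr10:82859106-82859130: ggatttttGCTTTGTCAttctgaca
G6pdx, chrX:74428921-74428945: gcgggtcaGCTCAGTCAaagcacac
Nfe2l2, chr2:75704887-75704911: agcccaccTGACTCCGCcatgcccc
The matches in Gclm, Txnrd1 and G6pdx lie on the reverse strand and read TGACGGTGC, TGACAAAGC and TGACTGAGC there. The G6pdx window begins inside an exon annotated in GENCODE M21, where the gene on the minus strand starts further upstream, at 74429194. The G6pdx stretch thus lies within the annotated gene, as does that of Txnrd1 start 2. No pattern was found in the window of Nqo1, of either Pgd start or of the other Txnrd1 starts. Of 32851 RefSeq promoter windows of 250 bases, 10.2% held the response element core, 4.46% the AP-1 site, 14.4% the variant core, and 0.724% both the core and the AP-1 site. A match describes the letters in this window only.

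**Figure D1:**
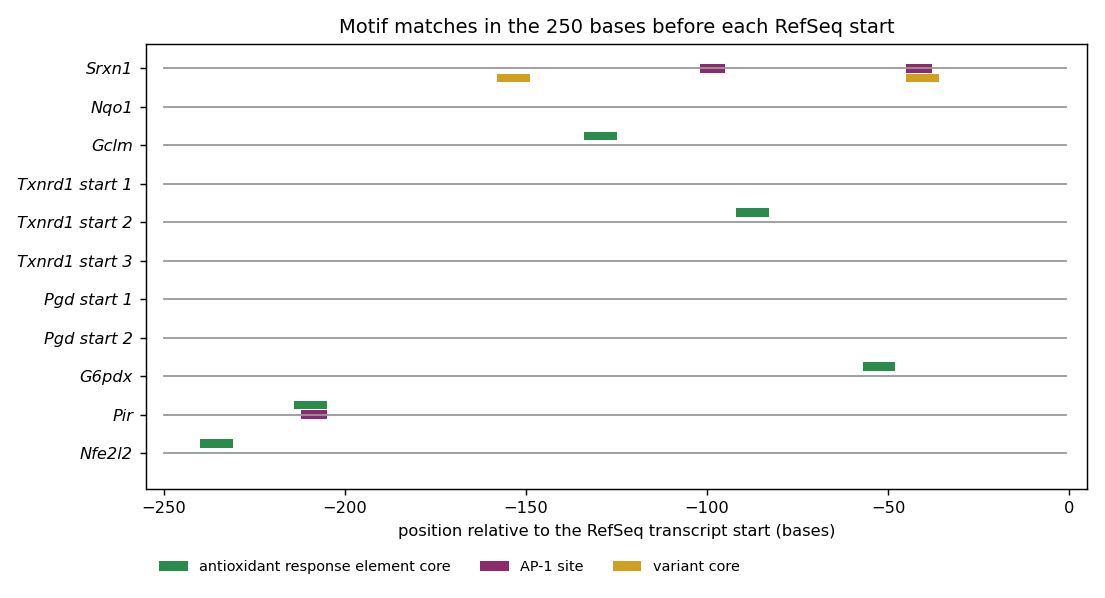
Matches to the antioxidant response element core, the AP-1 site and the variant core (coloured bars) along the 250 bases before each RefSeq transcript start (horizontal axis, bases relative to the start; vertical axis, 1 row per start of the 8 matched genes). AP-1 bars appear in the Srxn1 row at -102 and -45 and in the Pir row at -212, where the bar overlaps that of the core.

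Library totals ran from 16834041 to 20464807 counts. Fosl1, which encodes Fra-1, had 172, 193 and 252 counts in the Fra1 mutants against 0, 0 and 1 in their controls. Fosl2, which encodes Fra-2, was at 398, 421 and 421 CPM (read counts scaled to a common library size) in the Fra2 mutants. Their controls had 12.2, 48.1 and 16.0 CPM, so Fra2 control 2 stood above its group. On the same scale Fosl1 was at 9.41 to 12.8 CPM in the Fra1 mutants. Per kilobase of exon the mean was 5.31 CPM for Fosl1 in Fra1 mutants and 42.7 CPM for Fosl2 in Fra2 mutants. Summed over 7 hepatocyte marker genes, levels were between 56359 and 129437 CPM in all libraries, against 214 to 523 CPM for 8 Kupffer cell markers. No marker gene used was at 0 throughout a group. Tests are edgeR quasi-likelihood tests in a single fit of the 12 libraries, two-sided, with Benjamini-Hochberg adjusted p over all 14076 genes, and a gene was called at an adjusted p under 0.05.

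In the Fra1 mutants, 2 of the 10 genes rose, Srxn1 and Pgd, and none fell. Over all genes tested 3.84% were called in that comparison (2.9% higher and 0.938% lower). In the Fra2 mutants Srxn1 rose and Pir fell, 2 of 10, where 1.07% of all genes were called (0.845% higher and 0.22% lower). The median log2 fold change of the 10 genes was 0.46 in Fra1 mutants and 0.04 in Fra2 mutants, and that of all tested genes was 0.01 and -0.01. These medians are a description only, because the 10 genes were chosen with earlier results of these data known. Of the 10 log2 fold changes, 7 were above 0 in Fra1 and 6 in Fra2, where 51.0% and 49.1% of all tested genes were above 0. The 3 mutants lay wholly above the 3 controls for 2 members in Fra1 and for 3 in Fra2, and wholly below them for 0 in Fra1 and 2 in Fra2. The same separation upward was seen in 11.7% of all genes in Fra1 and 9.31% in Fra2, and downward in 9.98% and 8.17%. In bulk tissue, fewer cells of a type and less RNA per cell cannot be told apart.

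**Figure D2:**
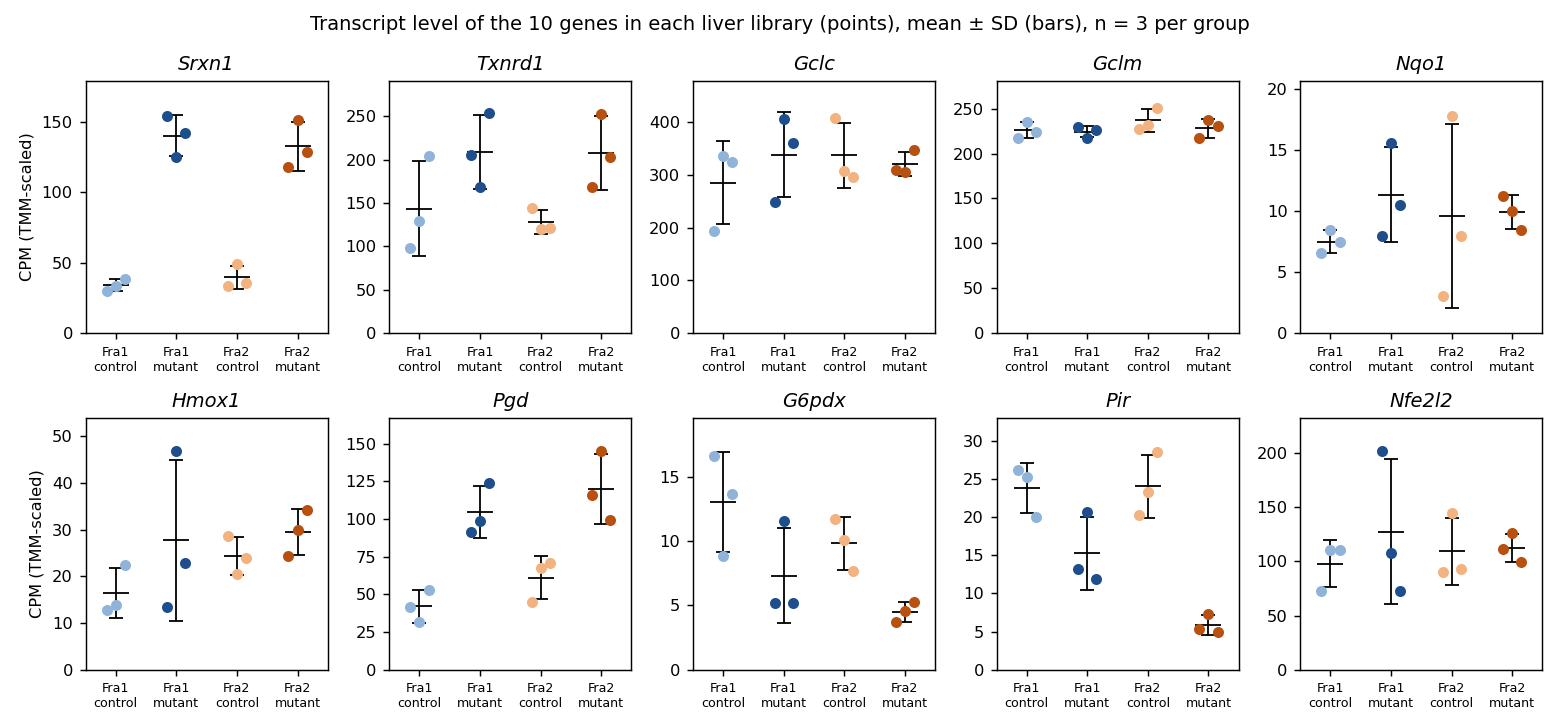
Transcript level (vertical axis, CPM after TMM scaling, from 0) of each of the 10 genes in the 4 groups (horizontal axis), 1 point per library with the mean and SD of 3 libraries. Srxn1 lies between 118 and 154 CPM in the 6 mutants and between 30.2 and 49.1 CPM in the 6 controls, while Gclm stays between 217 and 251 CPM in all 12 libraries.

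Srxn1 (ENSMUSG00000032802.8, chromosome 2, 152105516 to 152111376, plus strand, GRCm38) encodes sulfiredoxin, which uses ATP to repair peroxiredoxins that peroxide has over-oxidised. It stood at 30.2, 33.3 and 38.4 CPM in the Fra1 controls and at 154, 125 and 142 CPM in the Fra1 mutants. In the Fra2 strain the controls were at 33.4, 49.1 and 35.8 CPM and the mutants at 118, 151 and 128 CPM. Each mutant library of both strains was above every control library of either strain. Srxn1 rose 4.13-fold in Fra1 mutants (95% confidence interval 3.20 to 5.32), a log2 fold change of 2.04 ± 0.17 (SE; edgeR adjusted p = 6.57e-05). In Fra2 mutants it rose 3.36-fold (2.61 to 4.32), a log2 fold change of 1.75 ± 0.17 (SE; adjusted p = 0.000690). Without Fra2 control 2, which had the most Srxn1 of the controls as well as the most Fosl2, the Fra2 log2 fold change was 1.94 ± 0.16 (SE; adjusted p = 0.000539). The effects in the 2 strains differed by -0.30 ± 0.23 (SE) on the log2 scale, Fra2 minus Fra1, with a 95% confidence interval of -0.80 to 0.21. That difference did not pass the test (adjusted p = 0.899).

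Txnrd1 (ENSMUSG00000020250.10, chromosome 10, 82833951 to 82897712, plus strand) encodes the cytosolic thioredoxin reductase, a selenoprotein that spends NADPH to keep thioredoxin reduced. Its levels were 97.7, 129 and 204 CPM in Fra1 controls, 205, 168 and 253 CPM in Fra1 mutants, 144, 120 and 121 CPM in Fra2 controls and 168, 253 and 203 CPM in Fra2 mutants. The Fra1 groups overlapped, through control 3, and the Fra2 mutants all lay above their controls. On the log2 scale the change was 0.54 ± 0.25 (SE) in Fra1 (adjusted p = 0.318) and 0.69 ± 0.25 in Fra2 (adjusted p = 0.302), so Txnrd1 did not pass the test in either strain. The 95% confidence interval reached from -0.02 to 1.10 in Fra1 and from 0.14 to 1.25 in Fra2. Leaving out 1 library at a time gave Fra1 values from 0.31 (without Fra1 control 1) to 0.86 (without Fra1 control 3, adjusted p = 0.0772). Txnrd1 overlaps Eid3 on the same strand, and the sources used here do not say how reads shared by overlapping genes were counted.

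The glutathione synthesis genes showed no called change. Gclc (ENSMUSG00000032350.9, chromosome 9, 77754535 to 77794485, plus strand) encodes the catalytic subunit of glutamate-cysteine ligase, the rate-limiting enzyme of glutathione synthesis. It was at 194, 336 and 325 CPM in Fra1 controls, 249, 406 and 361 CPM in Fra1 mutants, 409, 307 and 297 CPM in Fra2 controls and 310, 306 and 347 CPM in Fra2 mutants. Groups overlapped in both strains, with Fra1 control 1 lowest and Fra2 control 1 highest. The Gclc log2 fold change was 0.25 ± 0.23 (SE) in Fra1 (95% confidence interval -0.25 to 0.75, adjusted p = 0.649) and -0.07 ± 0.23 in Fra2 (-0.58 to 0.43, adjusted p = 0.947). The Fra1 value of Gclc ranged from 0.019 (without Fra1 control 1) to 0.42 (without Fra1 mutant 1) when 1 library was left out.

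Gclm (ENSMUSG00000028124.15, chromosome 3, 122245557 to 122270732, plus strand) encodes the modifier subunit, which raises the catalytic efficiency of the same ligase. Its levels were 218, 236 and 224 CPM in Fra1 controls and 229, 217 and 227 CPM in Fra1 mutants. The Fra2 controls had 228, 232 and 251 CPM and the Fra2 mutants 217, 237 and 231 CPM. These 12 values are the tightest of the 10 genes, and the confidence intervals are correspondingly narrow. The log2 fold change of Gclm was -0.01 ± 0.09 (SE) in Fra1 (95% confidence interval -0.21 to 0.19, adjusted p = 0.974) and -0.05 ± 0.09 in Fra2 (-0.26 to 0.15, adjusted p = 0.897). The upper ends of these intervals, 0.19 and 0.15, lie below the log2 fold changes of Srxn1. Per kilobase of exon, Gclc exceeded Gclm 2.10-fold ± 0.53 (SD, n = 3) in Fra1 controls, 2.53-fold ± 0.66 in Fra1 mutants, 2.39-fold ± 0.54 in Fra2 controls and 2.35-fold ± 0.18 in Fra2 mutants. Gclm overlaps the gene models Gm6061 and Gm17494.

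Nqo1 and Hmox1 are often read as markers of NRF2 activity. Nqo1 (ENSMUSG00000003849.8, chromosome 8, 107388225 to 107403206, minus strand) encodes a quinone reductase that transfers a pair of electrons from NADH or NADPH. It was low, at 6.53, 8.45 and 7.48 CPM in Fra1 controls, 7.99, 15.6 and 10.5 CPM in Fra1 mutants, 3.04, 17.8 and 7.99 CPM in Fra2 controls and 11.3, 10.0 and 8.46 CPM in Fra2 mutants. Its highest and lowest values among the 12 libraries were both in Fra2 controls, and groups overlapped in both strains. For Nqo1 the log2 fold change was 0.60 ± 0.48 (SE) in Fra1 (95% confidence interval -0.45 to 1.64, adjusted p = 0.587) and 0.05 ± 0.47 in Fra2 (-0.99 to 1.09, adjusted p = 0.988). The interval of each strain holds both 0 and 1 on the log2 scale. Without Fra2 control 2, the library with 17.8 CPM, the Fra2 value was 0.84 ± 0.38 and did not pass the test either (adjusted p = 0.578). Without Fra2 control 1, the library with 3.04 CPM, it was -0.38 ± 0.34 (adjusted p = 0.726).

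Hmox1 (ENSMUSG00000005413.8, chromosome 8, 75093621 to 75100589, plus strand) encodes heme oxygenase 1, which opens the heme ring and is also abundant in macrophages that clear red blood cells. Its levels were 12.7, 13.9 and 22.5 CPM in Fra1 controls, 13.5, 46.8 and 22.8 CPM in Fra1 mutants, 28.5, 20.5 and 23.9 CPM in Fra2 controls and 24.3, 29.9 and 34.3 CPM in Fra2 mutants. Fra1 mutant 2 stood far above the other livers of its group, and groups overlapped in both strains. For Hmox1 the log2 fold change was 0.76 ± 0.38 (SE) in Fra1 (95% confidence interval -0.08 to 1.59, adjusted p = 0.352) and 0.28 ± 0.38 in Fra2 (-0.55 to 1.11, adjusted p = 0.849). Without Fra1 mutant 2 the Fra1 value was 0.15 ± 0.29 (adjusted p = 0.868). That liver also had the highest sum of its group for Kupffer cell markers (358 CPM, group range 258 to 358) and for recruited myeloid markers (97.0 CPM, group range 53.6 to 97.0). Fra1 control 3 had sums of 400 and 96.1 CPM for the same lists, with Hmox1 at 22.5 CPM. None of the 8 Kupffer or 8 recruited myeloid markers passed the edgeR test in either strain. Of the recruited myeloid markers, 7 of 8 had log2 fold changes above 0 in Fra1 (median 1.02), 3 of the 8 at an unadjusted p under 0.05. In Fra2 8 of 8 were above 0 (median 0.42), with 0 at that level. Of the Kupffer markers, 2 of 8 were above 0 in Fra1 (median -0.13) and 8 of 8 in Fra2 (median 0.27). The Kupffer sum was 261 to 400 CPM in Fra1 controls, 214 to 484 in Fra2 controls and 314 to 523 in Fra2 mutants, and the recruited myeloid sum was 51.3 to 96.1, 45.5 to 114 and 77.3 to 124 CPM in these groups. The part of these cells in the Hmox1 values was not tested.

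The pentose phosphate pathway makes NADPH in its oxidative branch, at the steps catalysed by glucose-6-phosphate dehydrogenase (G6pdx) and 6-phosphogluconate dehydrogenase (Pgd). Pgd rose in the Fra1 mutants, while G6pdx had log2 fold changes below 0 in both strains. Pgd (ENSMUSG00000028961.15, chromosome 4, 149149991 to 149166771, minus strand) was at 41.6, 31.5 and 53.1 CPM in Fra1 controls and at 91.2, 99.1 and 124 CPM in Fra1 mutants. The Fra2 controls had 45.1, 67.8 and 70.7 CPM and the Fra2 mutants 116, 145 and 99.2 CPM. Mutants and controls did not overlap in either strain. The Pgd rise in Fra1 was 2.49-fold (95% confidence interval 1.76 to 3.54), a log2 fold change of 1.32 ± 0.23 (SE; adjusted p = 0.00835). In Fra2 the log2 fold change of Pgd was 0.97 ± 0.23 (SE; 95% confidence interval 0.47 to 1.47; adjusted p = 0.0809), past the threshold with DESeq2 only (adjusted p = 0.00490). Leaving Fra2 control 2 out gave 1.05 ± 0.27 (adjusted p = 0.170). The difference of the Pgd effects, Fra2 minus Fra1, was -0.34 ± 0.32 (SE; 95% confidence interval -1.05 to 0.36; adjusted p = 0.922).

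G6pdx (ENSMUSG00000031400.10, chromosome X, 74409483 to 74429194, minus strand) encodes the enzyme that commits glucose-6-phosphate to this pathway. Its levels were 16.6, 8.84 and 13.7 CPM in Fra1 controls and 5.20, 11.5 and 5.18 CPM in Fra1 mutants, overlapping through mutant 2. The Fra2 controls had 11.7, 10.0 and 7.67 CPM and the Fra2 mutants 3.68, 4.58 and 5.24 CPM, all below their controls. For G6pdx the log2 fold change was -0.83 ± 0.33 (SE) in Fra1 (95% confidence interval -1.56 to -0.11, adjusted p = 0.230) and -1.12 ± 0.34 in Fra2 (-1.87 to -0.38, adjusted p = 0.188). Without Fra1 mutant 2 the Fra1 value was -1.32 ± 0.29 with an adjusted p of 0.0332, and with DESeq2 the Fra2 value had an adjusted p of 0.0497. G6pdx overlaps Ikbkg on the other strand, and the sources used here do not say whether counting used strand.

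Set side by side per kilobase of exon, the level of Pgd exceeded that of G6pdx in all 12 libraries, by a ratio that was higher in mutants. The ratio was 1.20, 1.70 and 1.85 in Fra1 controls and 8.38, 4.10 and 11.5 in Fra1 mutants. In Fra2 controls it was 1.84, 3.22 and 4.40, and in Fra2 mutants 15.1, 15.1 and 9.04. Within each strain every mutant ratio was above every control ratio, whereas the highest Fra2 control (4.40) was above the lowest Fra1 mutant (4.10). This ratio was chosen after the values had been seen and is given as a description with no test.

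**Figure D3:**
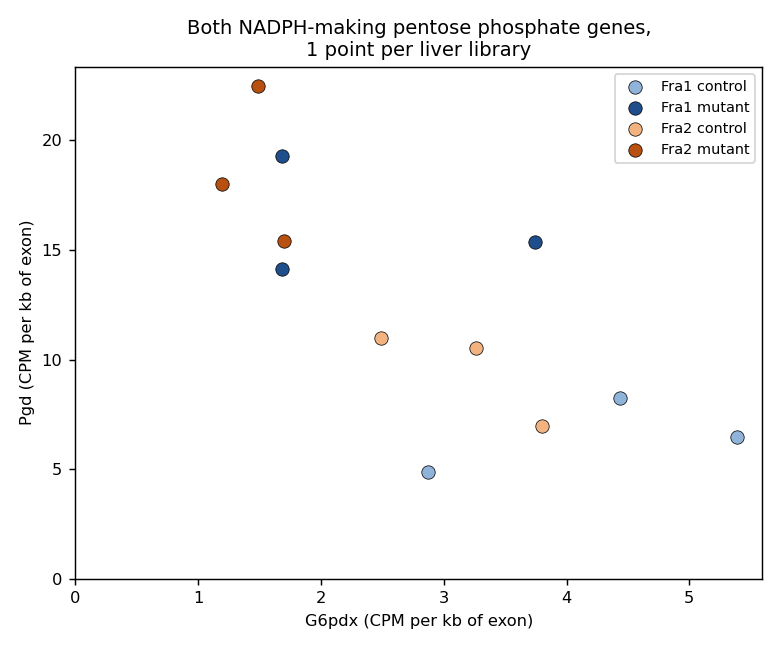
Level of Pgd (vertical axis) against level of G6pdx (horizontal axis), both in CPM per kilobase of exon from 0, with 1 point per liver library coloured by group. All 6 mutant livers lie above every control for Pgd, and 5 of the 6 lie below every control for G6pdx; the exception is Fra1 mutant 2, the mutant with a Pgd to G6pdx ratio of 4.10.

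Pir (ENSMUSG00000031379.13, chromosome X, 164269371 to 164373011, plus strand) encodes pirin, an iron-binding nuclear protein known as a cofactor of NF-kappaB and as an NRF2 target. It was at 26.1, 25.3 and 20 CPM in Fra1 controls and at 13.1, 20.7 and 11.9 CPM in Fra1 mutants. The Fra2 controls had 20.3, 23.2 and 28.5 CPM and the Fra2 mutants 5.32, 7.36 and 4.93 CPM. The Fra2 mutants were below every other library, while the Fra1 groups overlapped through mutant 2. Pir fell 4.09-fold in Fra2 mutants (95% confidence interval 2.84 to 5.88), a log2 fold change of -2.03 ± 0.24 (SE; adjusted p = 0.00228). Without Fra2 control 2 the value was -2.06 ± 0.27 with an adjusted p of 0.00798. In Fra1 mutants the log2 fold change was -0.64 ± 0.23 (SE; 95% confidence interval -1.14 to -0.14; adjusted p = 0.171), and without mutant 2 it was -0.93 ± 0.21 with an adjusted p of 0.0408. The difference of the Pir effects, Fra2 minus Fra1, was -1.39 ± 0.33 (SE; 95% confidence interval -2.11 to -0.67), with an unadjusted p of 0.00124 and an adjusted p of 0.364 by edgeR. With DESeq2 that difference had an adjusted p of 0.0273. Pir overlaps the short gene model Gm22023 on the same strand.

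Nfe2l2 (ENSMUSG00000015839.6, chromosome 2, 75675513 to 75704641, minus strand), the gene of NRF2 itself, was at 72.7, 111 and 110 CPM in Fra1 controls and 202, 108 and 72.6 CPM in Fra1 mutants. In the Fra2 strain the controls had 90.6, 145 and 92.7 CPM and the mutants 111, 126 and 99.8 CPM. Fra1 mutant 1 was the highest of all libraries, Fra1 mutant 3 was level with the lowest control, and groups overlapped in both strains. The log2 fold change of Nfe2l2 was 0.38 ± 0.33 (SE) in Fra1 (95% confidence interval -0.34 to 1.11, adjusted p = 0.622) and 0.04 ± 0.33 in Fra2 (-0.69 to 0.76, adjusted p = 0.985). Without Fra1 mutant 1 the Fra1 value was -0.13. A transcript level says nothing of how much NRF2 protein was released from KEAP1.

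**Figure D4:**
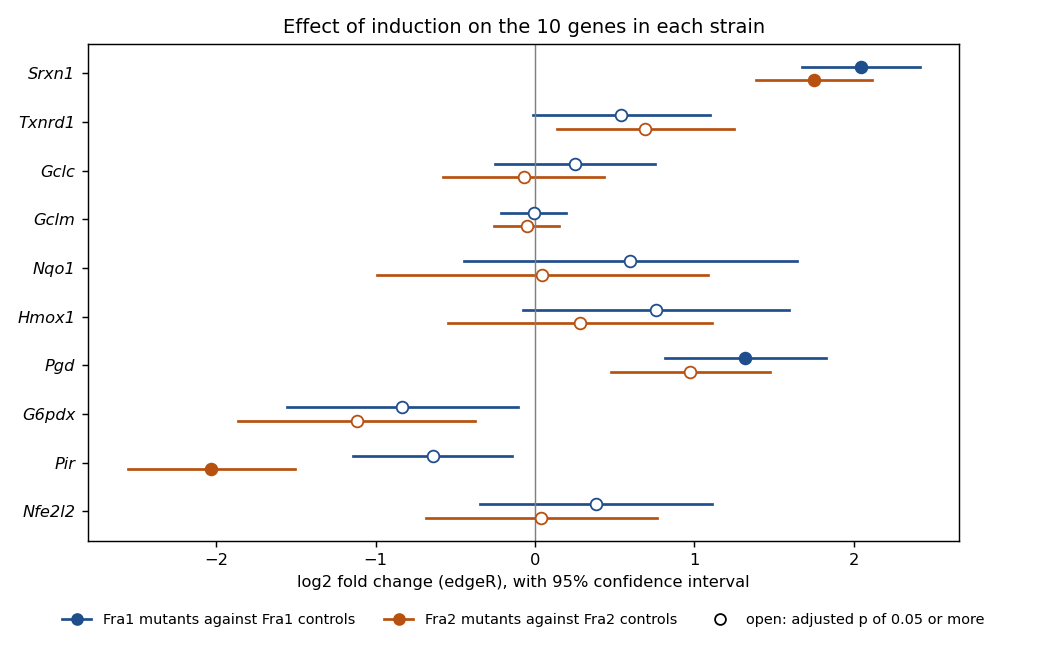
log2 fold change of mutants against controls (horizontal axis) for each of the 10 genes (vertical axis), points with 95% confidence intervals from edgeR, in blue for Fra1 and orange for Fra2, filled where the adjusted p was under 0.05. The filled points are Srxn1 in both strains, Pgd in Fra1 and Pir in Fra2.

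Fra1 mutant 2 was the highest of its group for Gclc, Nqo1, Hmox1, G6pdx and Pir, and the lowest for Srxn1, Txnrd1 and Gclm. Leaving it out raised the number of members called in Fra1 from 2 to 4, with G6pdx and Pir added on the lower side. The fit without Fra1 mutant 2 called 424 of 14342 genes in Fra1, against 540 of 14076 with all libraries. This liver also had the lowest cholangiocyte marker sum of its group (64.9 CPM, group range 64.9 to 364), against 99.6 to 141 CPM in Fra1 controls. Its sums were the highest of the Fra1 mutants for hepatocyte markers (106122 CPM, against 73215 and 56359) and for lymphocyte markers (14.4 CPM, against 5.47 and 7.67, with 5.33 to 6.92 in Fra1 controls). None of the 7 cholangiocyte markers that could be tested passed the test in Fra1 or Fra2, and the part of these cells in the members' values was not tested.

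Hepatocyte marker sums were 56359 to 106122 CPM in Fra1 mutants against 88172 to 125520 in their controls, and 62810 to 73197 CPM in Fra2 mutants against 107765 to 129437. The Fra1 sums overlapped through Fra1 mutant 2 (106122 CPM), the other Fra1 mutants (73215 and 56359 CPM) being below every Fra1 control, and the Fra2 sums did not overlap. None of the 7 genes of that list passed the edgeR test in either strain, with 4 at an unadjusted p under 0.05 in each. The albumin gene Alb is 1 of the 7 and carries much of each sum. It alone took 3.69% to 8.32% of counts in Fra1 mutants and 6.02% to 7.81% in Fra1 controls. In Fra2 mutants it took 3.54% to 5.37%, against 7.47% to 9.75% in Fra2 controls. The single genes went in both directions. In Fra1 3 of the 7 log2 fold changes were above 0, with a median of -0.41 and a range of -0.87 to 0.49. In Fra2 4 of the 7 were above 0, with a median of 0.01 and a range of -1.17 to 0.54. In the average over both strains Apoa1, the main protein of high-density lipoprotein, was called lower (log2 effect -1.02 ± 0.23, SE; adjusted p = 0.02195). Stellate cell marker sums were 337 to 397 CPM in Fra1 mutants against 222 to 271 in Fra1 controls, and 241 to 319 CPM in Fra2 mutants against 309 to 343 in Fra2 controls. Of the 8 stellate genes, Dcn, which encodes the matrix proteoglycan decorin, rose in Fra1 mutants (log2 fold change 0.86 ± 0.12, SE; adjusted p = 0.00239) and none was called in Fra2. The part of either cell type in the values of Srxn1, Pgd, G6pdx and Pir was not tested.

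Averaged over both strains, with mutants set against controls within each strain, Srxn1 and Pgd were higher and G6pdx and Pir lower, 4 of 10, where 6.24% of all genes were called (4.33% higher and 1.9% lower). This average uses the same 12 libraries as the strain comparisons. The average log2 effect was 1.90 ± 0.12 (SE) for Srxn1 (adjusted p = 5.07e-06), 1.15 ± 0.16 for Pgd (adjusted p = 0.00147) and -1.34 ± 0.16 for Pir (adjusted p = 0.000577). For G6pdx it was -0.98 ± 0.24 with an adjusted p of 0.0330. That call lay near the threshold and was lost when any of 9 libraries was left out, all but Fra1 control 2, Fra1 mutant 2 and Fra2 control 3, with adjusted p between 0.0539 and 0.0826. For Txnrd1 the average was 0.62 ± 0.18 with an adjusted p of 0.0720, which passed the threshold without Fra1 control 3 (adjusted p = 0.0129) and with DESeq2 (adjusted p = 0.0171).

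The test of the difference between the strains' effects called 0 of the 10 genes with edgeR, where 0.0355% of all genes were called (0.0071% higher and 0.0284% lower). Pir was the 1 member with an unadjusted p under 0.05, and was the 1 called by DESeq2. limma-voom called 0. Between the 2 groups of controls edgeR called 0 of 10 and 0% of all genes, DESeq2 and limma-voom called 0 of 10, and 1 member had an unadjusted p under 0.05. That member was Pgd, higher in Fra2 than in Fra1 controls by 0.54 ± 0.23 (SE) on the log2 scale (adjusted p = 0.866).

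Levels between genes are compared per kilobase of exon. In Fra1 controls the order was Gclc (75.7 CPM per kb ± 20.9, SD, n = 3), Gclm (35.9 ± 1.44), Nfe2l2 (25.8 ± 5.73), Txnrd1 (20.3 ± 7.72), Srxn1 (12 ± 1.47), Hmox1 (9.34 ± 3.05), Pgd (6.52 ± 1.67), Nqo1 (4.82 ± 0.62), Pir (4.29 ± 0.60) and G6pdx (4.23 ± 1.27). Gclc and Gclm, and Gclm and Nfe2l2, differed by more than the sum of their SDs, and each neighbouring pair from Nfe2l2 down by less. In Fra1 mutants Srxn1 stood at 49.7 CPM per kb ± 5.19 (SD), below Gclc (89.9 ± 21.4) and above Gclm (35.7 ± 1.02), Nfe2l2 (33.6 ± 17.7) and Txnrd1 (29.5 ± 6.04). In Fra2 mutants Srxn1 stood at 47.0 CPM per kb ± 6.13, again between Gclc (85.2 ± 5.98) and Gclm (36.3 ± 1.66). Pgd was at 16.3 CPM per kb ± 2.68 in Fra1 mutants and 18.6 ± 3.58 in Fra2 mutants, and Pir and G6pdx were the lowest in both, at 2.75 ± 0.86 and 2.37 ± 1.19 in Fra1 and 1.06 ± 0.24 and 1.46 ± 0.25 in Fra2.

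The regulators of NRF2 were described with a list of 12 genes, all tested: the KEAP1 ubiquitin ligase complex, other factors that stabilise or degrade NRF2, the repressors Bach1 and Bach2, and the small Maf partners. Mafk alone was called, higher in both strains. Of all genes tested, 2.9% were called higher in Fra1 and 0.845% in Fra2. Mafk was at 17.2, 14 and 12.1 CPM in Fra1 controls and 53.4, 47.3 and 45.8 CPM in Fra1 mutants. In Fra2 it was at 14, 19.4 and 12 CPM in controls and 27.8, 41.5 and 38.3 CPM in mutants. Each mutant was above every control. The log2 fold change of Mafk was 1.76 ± 0.21 (SE) in Fra1 (adjusted p = 0.000657) and 1.25 ± 0.20 in Fra2 (adjusted p = 0.0161). Mafk in Fra2 did not pass without Fra2 control 1 (adjusted p = 0.0541), Fra2 control 3 (0.0665), Fra2 mutant 2 (0.0656) or Fra2 mutant 3 (0.0691). The other small Maf genes were not called: the log2 fold change was -0.32 ± 0.12 for Mafg and 0.11 ± 0.56 for Maff in Fra1, and -0.15 ± 0.12 and -0.68 ± 0.57 in Fra2. Keap1 was at -0.13 ± 0.09 in Fra1 and -0.03 ± 0.09 in Fra2, and Sqstm1, whose protein p62 sequesters KEAP1, at 0.10 ± 0.14 and 0.19 ± 0.14. Bach2, not called, was at 4.96 to 16.2 CPM in Fra1 controls and 1.70 to 5.49 in Fra1 mutants, and at 6.87 to 9.61 and 4.64 to 8.26 CPM in Fra2. Dpp3, not called, was at 68.7 to 80.1 CPM in Fra1 controls and 73.2 to 111 in Fra1 mutants. In Fra2 its levels were 51.2 to 77.4 and 92.5 to 101 CPM. Counting Mafk, 4 of the 12 had an unadjusted p under 0.05 in Fra1 and 2 in Fra2. The list's median log2 fold change was 0.11 in Fra1 and 0.00 in Fra2.

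Of 22 further NRF2 target genes, 20 were tested and Slc7a11 and Gpx2 did not pass the filter on low counts. In Fra1 mutants 4 rose and none fell, with a list median of 0.04. In Fra2 mutants 1 rose and none fell, with a median of -0.10. Over all genes tested, 2.9% were called higher in Fra1 and 0.845% in Fra2. Counting the called genes, 8 of the 20 had an unadjusted edgeR p under 0.05 in Fra1 and 3 in Fra2. The log2 fold change was above 0 for 11 and below 0 for 9 in Fra1, and for 6 and 14 in Fra2. Ugdh, the enzyme that makes UDP-glucuronate for glucuronidation, rose in both strains. It was at 157, 147 and 169 CPM in Fra1 controls against 375, 412 and 436 CPM in Fra1 mutants (log2 fold change 1.37 ± 0.12, SE; adjusted p = 0.000102). In Fra2 it was at 198, 214 and 195 CPM in controls against 367, 287 and 350 CPM in mutants (0.73 ± 0.12; adjusted p = 0.0165). Ugdh in Fra2 did not pass without Fra2 control 1 (adjusted p = 0.0518), Fra2 control 3 (0.0793), Fra2 mutant 1 (0.0621) or Fra2 mutant 3 (0.0790).

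Among the other targets called in Fra1, Entpd5, a nucleotidase of the endoplasmic reticulum, had a log2 fold change of 1.04 ± 0.16 (SE; adjusted p = 0.00428). In Fra2 it was at 0.76 ± 0.16 (adjusted p = 0.0555), past the threshold with DESeq2, without a filter on low counts and without Fra1 mutant 2. Ephx1, the microsomal epoxide hydrolase, was at 0.66 ± 0.15 in Fra1 (adjusted p = 0.0311). The Ephx1 call was lost without any of Fra1 controls 1 (0.147), 2 (0.0633) and 3 (0.0931) or Fra1 mutants 1 (0.0813) and 3 (0.111). Abcc4, an efflux transporter, rose in Fra1 mutants by 2.36 ± 0.39 (adjusted p = 0.00590), from 1.11, 1.23 and 0.646 CPM to 5.74, 6.06 and 3.66 CPM. Its Fra2 controls were already at 4.25, 2.40 and 5.18 CPM, against 4.96, 7.31 and 3.58 CPM in Fra2 mutants. The NADPH-making malic enzyme Me1 went the other way without passing the test, at -1.28 ± 0.55 in Fra1 (adjusted p = 0.272) and -0.80 ± 0.54 in Fra2 (adjusted p = 0.652). Glutathione reductase Gsr (0.01 ± 0.13 and -0.11 ± 0.13), peroxiredoxin Prdx1 (-0.15 ± 0.12 and -0.01 ± 0.12) and thioredoxin Txn1 (-0.39 ± 0.16 and -0.10 ± 0.16), in Fra1 and Fra2 respectively, were not called.

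The rest of the pentose phosphate pathway and other sources of NADPH were followed with 12 genes, all tested. edgeR called 0 of 12 in Fra1, with 2 at an unadjusted p under 0.05, and 0 of 12 in Fra2, with 1 at that level, and DESeq2 and limma-voom called 0 in either strain. Over all genes edgeR called 3.84% in Fra1 and 1.07% in Fra2. The list medians were 0.04 and 0.06. Transketolase (Tkt) was at -0.09 ± 0.36 (SE) in Fra1 and -0.12 ± 0.36 in Fra2, transaldolase (Taldo1) at 0.09 ± 0.32 and 0.36 ± 0.32, and H6pd, the dehydrogenase of the endoplasmic reticulum, at 0.11 ± 0.15 and 0.30 ± 0.15. Rpia, the ribose-5-phosphate isomerase, was at -0.82 ± 0.27 (adjusted p = 0.132) and -0.52 ± 0.26 (adjusted p = 0.499). In the average over both strains Idh2, the mitochondrial NADP-dependent isocitrate dehydrogenase, was called lower (log2 effect -0.32 ± 0.08; adjusted p = 0.0381). Whether these effects differ from that of Pgd was not tested.

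A list of 16 further peroxide and thiol defence genes had 1 call in Fra1, Gss, the glutathione synthetase that completes the tripeptide after glutamate-cysteine ligase. Over all genes edgeR called 3.84% in Fra1 and 1.07% in Fra2. Gss was at 82.5, 81.7 and 89.3 CPM in Fra1 controls against 133, 169 and 135 CPM in Fra1 mutants (log2 fold change 0.79 ± 0.17, SE; adjusted p = 0.0226). Leaving out any of Fra1 controls 1, 2 and 3 or Fra1 mutant 2 ended the call of Gss, with adjusted p of 0.0987, 0.0858, 0.0597 and 0.0740. In Fra2, where the mutants again lay above the controls, it was 0.46 ± 0.17 (adjusted p = 0.298). edgeR called 0 of the 16 in Fra2, with 4 at an unadjusted p under 0.05, as did DESeq2 and limma-voom. The list medians were -0.18 in Fra1 and 0.02 in Fra2. Of 8 paralogs of the members, 6 were tested and edgeR called 0 in either strain, with 1 at an unadjusted p under 0.05 in each. Among them the mitochondrial thioredoxin reductase Txnrd2 was at -0.65 ± 0.16 in Fra2 (adjusted p = 0.110), which DESeq2 called, and limma-voom called 0.

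**Figure D5:**
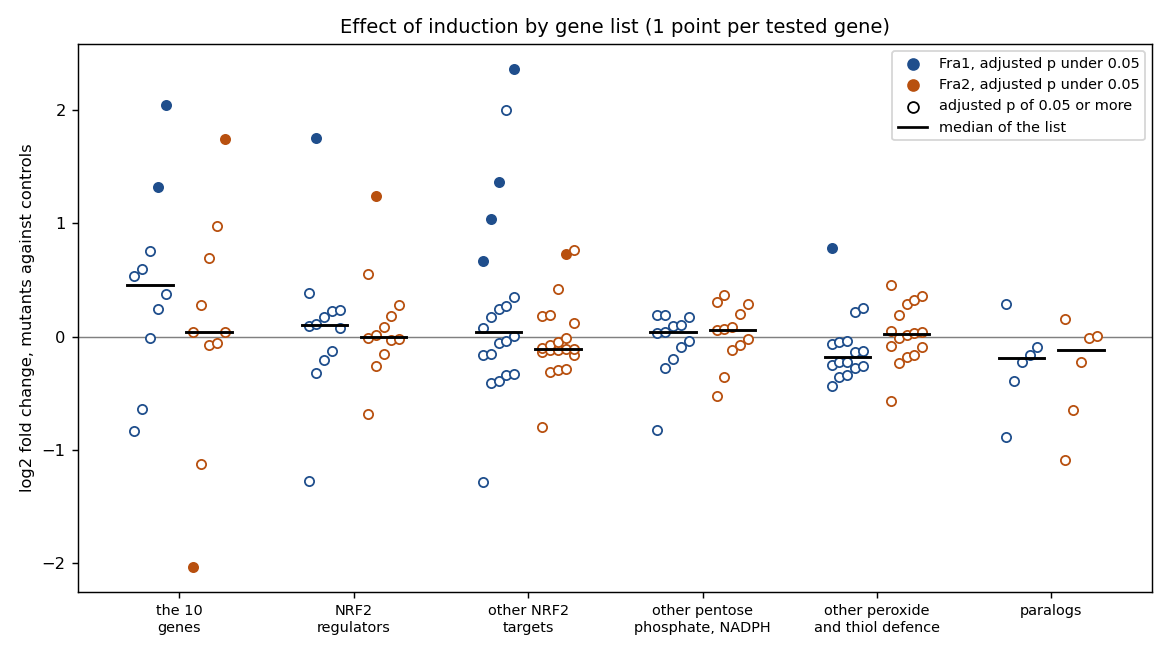
log2 fold change of mutants against controls (vertical axis) for the 10 genes and the 5 lists described beside them (horizontal axis), 1 point per tested gene, Fra1 in blue and Fra2 in orange, filled where the adjusted p was under 0.05, with a black line at each median. The medians lie between -0.19 and 0.11 for the 5 lists and at 0.46 and 0.04 for the 10 genes. Genes and lists were chosen with earlier results of these data known, so the medians are a description only.

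The genes whose levels over the 12 libraries were closest to those of Srxn1, by the root mean square distance between log2 CPM profiles each centred on its own mean, were Tiam2 (0.20), Arl6ip5 (0.21), Asrgl1 (0.24), Fam214b (0.26) and Adssl1 (0.26). Among those close to Pir were Hsd17b13 (0.46), Pogk (0.46), Gstp3 (0.47) and Apoa1 (0.48). For Nqo1 they were Rtn2 (0.36), Robo1 (0.37), Ptpn7 (0.38), Eid2b (0.38) and Gpx4 (0.38). These distances are in log2 units, cover protein-coding genes that passed the filter, and describe 12 libraries that fall into the same 4 groups.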

How the data were processed

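PolyA-selected RNA was extracted with Trizol and made into strand-marked libraries, per the labels' protocols. The authors deposited whole-number counts per gene, not normalized. The build was GRCm38 (mm10), and DESeq2 1.22.2, bedtools 2.27.1, RSEM and STAR 2.6.1a were used, per the submitters' processing notes. The sources used here do not give the counting tool, its strand setting or its treatment of shared reads. 

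Groups came from the titles. R 4.3.3 with edgeR 4.0.16 (filterByExpr by group, TMM factors, robust quasi-likelihood fit of 4 group means, glmQLFTest) gave the contrasts, and standard errors were derived from the test statistic. DESeq2 1.42.0, limma-voom (limma 3.58.1), other scalings, filters and sample sets were alternatives. Scripts were tested on simulated counts with planted changes. In Fra1 0 of 39 changes of 1.5-fold, 9 of 29 of 2-fold and 16 of 31 of 4-fold were recovered. In Fra2 these were 1 of 30, 15 of 39 and 28 of 32. The simulation had 27 calls in Fra1 and 45 in Fra2, fewer than the data, so these shares need not hold there. A gene that was not called may still have changed. No pair of libraries in a group was within sampling noise. Exon lengths and positions are from GENCODE M21, which held 55240 of the 55421 identifiers without version. Promoter windows are from RefSeq (GRCm38.p6).

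The members and lists were chosen with earlier results of these data known. All members are named; from each list, up to 4 called genes per contrast with the smallest adjusted p, others only by value where the list is described; and for Srxn1, Nqo1 and Pir the 5 genes of nearest profile. Of the genes so chosen, 1 is not reported here. The marker Tf was left out because its symbol is on several rows.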

Additional observations from a re-analysis of the deposited data

How the results depend on the processing

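Srxn1 and Pgd in Fra1 and Srxn1 and Pir in Fra2 were called in every alternative run, with adjusted p of at most 0.00104, 0.0475, 0.0135 and 0.0179. The number of members called was 2 to 4 in Fra1 over fits that each leave out 1 library (4 without Fra1 mutant 2, where 424 of 14342 genes were called). With DESeq2 it was 4 in Fra2 (Pgd and G6pdx added) and 1 for the difference of the effects (Pir). DESeq2 also called more genes in all, 1021 against 540 in Fra1 and 448 against 150 in Fra2, 69 against 5 for the difference, 18 against 0 between controls and 1348 against 878 for the average. Without a filter the difference had 9 calls and the controls 3, and with limma-voom the difference had 0.

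Over all genes, leaving out 1 library gave 267 to 582 calls in Fra1, 53 to 184 in Fra2 and 0 to 13 for the difference. The lowest Fra1 counts came without Fra1 controls 1 (267), 2 (317) and 3 (349), and the lowest Fra2 counts without Fra2 controls 2 (76) and 3 (59) or Fra2 mutants 1 (95), 2 (56) and 3 (53). With only the libraries compared Fra2 had 90. After centring on group means, same-numbered controls and mutants had correlations of -0.07, 0.05 and 0.05 in Fra1 and 0.06, 0.03 and -0.12 in Fra2. Other pairs of a control and a mutant within a strain ranged from -0.14 to 0.11. With 3 libraries per group, these values cannot tell whether replicate numbers pair the samples. With the replicate block the members called were 2 in Fra1, 2 in Fra2, 0 for the difference and 3 for the average. G6pdx had an adjusted p of 0.121 in that average. Of all 14076 genes, the same fit called 371 in Fra1, 98 in Fra2, 5 for the difference and 631 for the average. The block also ended the calls of Ugdh in Fra2 (0.0906) and of Ephx1 (0.111) and Gss (0.0682) in Fra1, and a fit of only the libraries compared those of Mafk (0.0708) and Ugdh (0.0843) in Fra2 and Ephx1 (0.111) in Fra1.

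Without a scaling factor the median of all genes in Fra1 moved from 0.01 to 0.15 and Gclm to 0.13, and the average effect of Txnrd1 passed the threshold (adjusted p = 0.0496). Over fits leaving out 1 library, values that changed sign ranged from -0.051 to 0.022 for Gclm in Fra1 and -0.13 to 0.65 for Nfe2l2 in Fra1. In Fra2 they ranged from -0.38 to 0.84 for Nqo1, -0.16 to 0.087 for Gclc and -0.081 to 0.29 for Nfe2l2. The G6pdx difference ranged from -0.49 to 0.20. None of these was called in any alternative, and apart from the scaling shift the cause was not tested. Standard errors in the strain comparisons were widest among the members for Nqo1 (0.48 in Fra1 and 0.47 in Fra2).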
